A study of Rattus norvegicus with 6 samples.

Results

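Isg15, Uba7, Ube2l6 and Usp18 encode the modifier ISG15, the enzymes that prepare it for attachment and the protease that takes it off again, and their mRNA was followed here in rat spinal cord cultures grown on carbon nanotubes (CNT) or on polyornithine (control). The 4 genes were taken by their symbol in the array annotation, out of 14217 genes with a probe set of their own, and they are read by 6 probe sets. They were chosen with their CNT to control difference in these same arrays already known, so that difference is described below and not tested. Each of 3 control and 3 CNT cultures came from spinal cords of rats at postnatal days 1 to 4, dissociated and plated on polyornithine-coated glass or on glass covered with a film of multiwalled nanotubes, with nerve growth factor in the medium of both, and 100 ng of RNA per culture, taken at 8 days in vitro, was hybridized to an Affymetrix array of its own. The sample labels give the strain as Sprague-Dawley for all 6 cultures, whereas the study's methods name Wistar rats. Values are log2 expression made by the authors with RMA, which sets the arrays to a common scale, and a log2 difference of 1 is a doubling. The study describes its replicates as 3 culture series.

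ISG15 is a ubiquitin-like protein, built as a tandem pair of ubiquitin-like domains, that vertebrate cells make in quantity in response to type I interferon. Uba7 activates it, Ube2l6 receives it as the conjugating enzyme, and a ligase passes it to lysines of target proteins, while Usp18 cleaves it from them. Usp18 also binds the interferon receptor subunit Ifnar2 and dampens signalling there. In nervous tissue, microglia, astrocytes and neurons can all respond to interferon. The label of the cultures was set beside markers of their cell types. The astrocyte gene Gfap (log2 expression 13.70 to 14.38), the myelin gene Mbp (14.22 to 14.72) and the microglial gene Aif1 (11.98 to 13.15) were bright on every array. The neuronal genes Tubb3 (9.20 to 10.11) and Snap25 (8.31 to 10.62) had mean levels above those of 47.9% and 45.4% of genes. Slc1a2, another astrocyte gene, was dimmer (7.36 to 8.53, above 29.3%). No detection call was used, so signal above background was not established for Slc1a2. By expression values alone, fewer cells of a type and less RNA per cell cannot be told apart in such mixed cultures.

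Isg15, the modifier itself, had the widest difference of the 4 genes. Its single probe set (gene 298693) read 9.91, 8.88 and 12.25 in control cultures 1, 2 and 3 and 12.71, 12.81 and 13.89 in CNT cultures 1, 2 and 3. Every CNT culture lay above every control culture, although control 3 stood close to the CNT cultures, only 0.47 below the lowest of them. The mean of the controls was 10.34 ± 1.73 (SD, n = 3) and that of the CNT cultures 13.14 ± 0.65 (SD, n = 3), a log2 difference of 2.79 (standard error 0.86) or a fold of 6.92. Ordered by fold, Isg15 was in place 7 of the 14217 genes. The fold was 13.4 without control 3 and 4.16 without control 2.

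Usp18, which removes ISG15 from proteins, was second and followed Isg15 from array to array. Its single probe set (gene 312688) gave 9.45, 8.82 and 11.82 in the control cultures and 12.24, 12.65 and 13.04 in the CNT cultures. As for Isg15, the groups did not overlap, control 3 was the high control and CNT 3 the highest of all. The log2 means were 10.03 ± 1.58 (SD, n = 3) and 12.64 ± 0.40 (SD, n = 3), a log2 difference of 2.61 (standard error 0.76) or a fold of 6.12, which put Usp18 in place 10 of all genes. Without control 3 the fold was 11.4 and without control 2 it was 4.02. Over the 6 arrays the log2 values of Usp18 and Isg15 had a Pearson r of 0.99, and the deviations from the group means an r of 0.98. These are descriptions over 6 arrays that share the group difference and, in the second case, the high values of control 3.

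Uba7, the activating enzyme, had a smaller difference with a much narrower spread. Of its 3 probe sets (gene 301000), the brightest read 8.05, 8.10 and 8.53 in control cultures and 9.26, 9.66 and 9.51 in CNT cultures. The lowest CNT culture exceeded the highest control by 0.73, the widest gap among the 4 genes. The means of 8.23 ± 0.26 (SD, n = 3) and 9.47 ± 0.20 (SD, n = 3) gave a log2 difference of 1.25 (standard error 0.17), a fold of 2.37. The 3 probe sets of Uba7 did not read alike. The second gave 7.72, 7.71 and 8.38 in control and 8.93, 9.59 and 9.51 in CNT cultures, a log2 difference of 1.41 (standard error 0.26). The third gave 7.86, 7.98 and 7.70 in control and 8.31, 8.41 and 7.85 in CNT cultures, and here the groups overlapped, since CNT 3 lay below control 2. Its log2 difference was 0.34 (standard error 0.17), a fold of 1.27 against 2.65 for the second probe set. Which stretch of the Uba7 transcript each probe set reads was not analysed here.

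**Figure D1:**
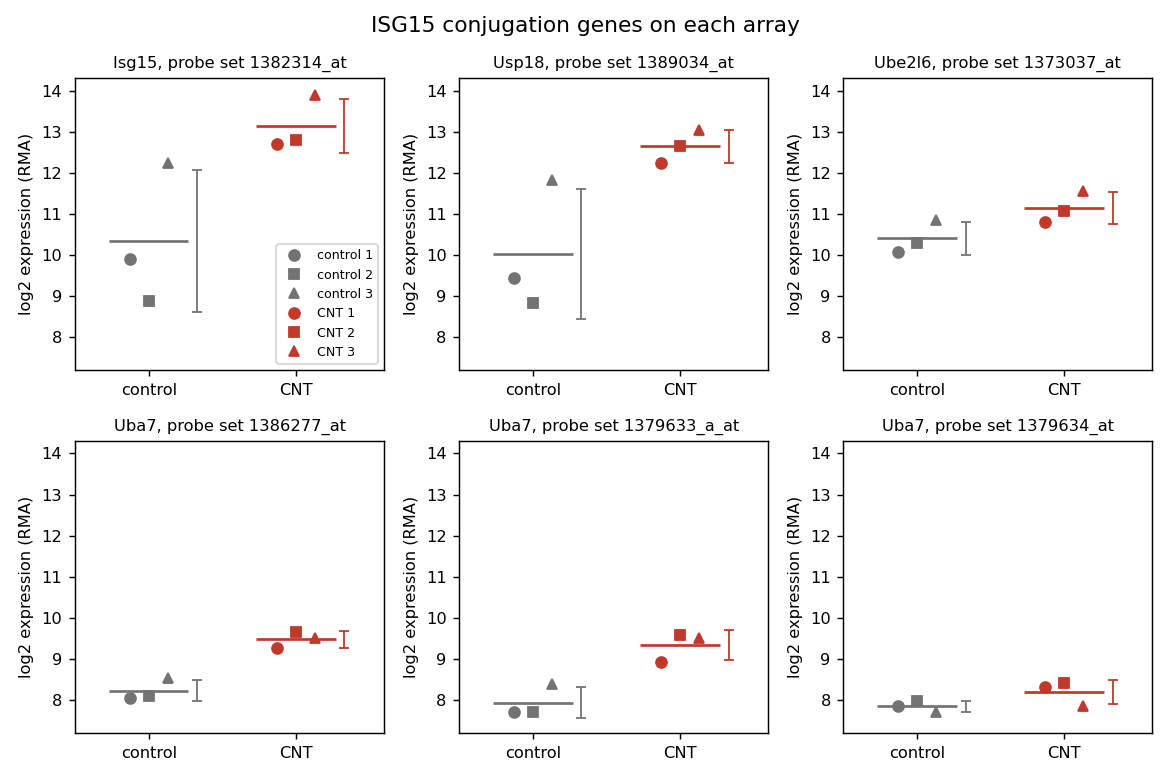
Log2 expression (vertical axis, RMA) of the 6 probe sets of Isg15, Usp18, Ube2l6 and Uba7, in controls (grey) and CNT cultures (red), where the marker shape gives the culture number. The horizontal line is a group's mean and the bar its SD (n = 3). Control 3 stands near the CNT cultures for Isg15 and Usp18, and the third Uba7 probe set shows overlapping groups with a fold of 1.27.

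Ube2l6, the conjugating enzyme, had the smallest difference of the 4, and its groups overlapped. Its single probe set (gene 295704) read 10.09, 10.28 and 10.86 in control cultures and 10.81, 11.07 and 11.57 in CNT cultures. Control 3 lay 0.05 above CNT 1, so the overlap rests on that pair of cultures. The log2 difference between 11.15 ± 0.38 (SD, n = 3) in CNT and 10.41 ± 0.40 (SD, n = 3) in control cultures was 0.74 (standard error 0.27), a fold of 1.67 that put the gene in place 224. In 3 of the 4 genes, then, the CNT arrays all exceeded the control arrays, which held for 5.94% of all genes tested, while the opposite held for 2.05% of all genes and for none of the 4. The 4 genes were picked for this contrast, so their number says nothing further.

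Control 3 divided the 4 genes. In Isg15 it was 7.22-fold above the mean of controls 1 and 2 and in Usp18 6.42-fold, which covered 76.2% and 76.5% of the log2 distance from those controls to the CNT mean. In Ube2l6 it covered 70.0% of a shorter distance. In Uba7 it covered 32.4% by the brightest probe set and 41.0% by the second, while in the third control 3 was the lowest control. The lowest CNT culture lay 0.73 and 0.55 above control 3 in the brightest and second sets. For Isg15 and Usp18 it lay 0.47 and 0.42 above. Among the CNT cultures the order differed as well. CNT 3 was the highest for Isg15, Usp18 and Ube2l6, and CNT 2 for Uba7. The highest and lowest CNT cultures were 2.26-fold apart for Isg15 but 1.32-fold for the brightest Uba7 probe set.

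The promoter table of RefSeq (build GRCr8), which holds the sequence from 250 bases before to 50 bases after a gene's start, has entries for Uba7 and Ube2l6. Both were searched on either strand for the core of the interferon-stimulated response element, the site that the ISGF3 complex binds, written as GAAA, any 2 bases and GAAA again, and for a shorter form, AAANNGAAA, that is contained in the first. Of 33469 such windows in the table, 3.92% held the longer and 11.8% the shorter form. The palindromic gamma-activated site, TTCNNNGAA, was searched too and stood in 8.87% of all windows and in neither of these. Neither window held the longer form, and that of Uba7 held the shorter one once, downstream of the start and on the opposite strand. It is shown because it is the only such match in the windows of these genes, with the match in capitals:
Uba7, chr8:117543922-117543951, plus strand, bases 21 to 50 after the start: gaaccaactctgtctagTTTCACTTTtggt
A match is a description of letters and not of binding, and the absence of one from the Ube2l6 window says only that these letters are not in it.

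Comparisons with relatives use the brightest probe set of each gene. So read, each of the 4 genes had a larger difference than every measured relative of its own class. These relatives do the same task for other modifiers. The third Uba7 probe set, with 0.34, lay below Mocs3 (0.35), the highest activating enzyme of other modifiers. Of 92 measured relatives, which are other ubiquitin-like modifiers, activating enzymes, conjugating enzymes and Usp proteases, 91 had a log2 difference within 0.5 of none, or 98.9%, against 94.5% of all genes. With limma and Benjamini-Hochberg adjustment, 0% of the 14217 genes were called higher and 0% lower (lowest adjusted p 0.847). Before adjustment, 342 genes were higher with p under 0.05 (2.41% of all genes) and 101 lower (0.710%), and with median centring of the arrays these were 546 and 54. By that measure 2 of the 92 relatives were higher (2.17%) and none lower, a share near that of all genes. In 6 of them (6.52%) the CNT arrays all exceeded the control arrays, a share near the 5.94% of all genes. In 1 of the 92 they all lay below, beside 2.05% of all genes.

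Among the modifiers, Isg15 had Ubd as its nearest neighbour. Ubd, also called FAT10, is another modifier with tandem ubiquitin-like domains, which inflammatory cytokines induce. It read 6.79, 6.60 and 7.11 in control and 7.32, 6.96 and 8.79 in CNT cultures, a log2 difference of 0.86 (standard error 0.47), and its groups overlapped. This rested on CNT 3, without which the difference was 0.31. The other 12 of 13 measured modifiers lay between -0.14 (Sumo3) and 0.11 (Ufm1). Gabarap, a modifier of autophagy and the brightest of the list, had a log2 difference of 0.02 (standard error 0.09).

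The 8 measured activating enzymes of other modifiers had a median log2 difference of -0.03, beside 0.03 over all genes and 1.25 for Uba7. Uba1, which activates ubiquitin and is the relative most like Uba7 in its task, gave 12.92, 13.09 and 12.61 in control and 12.92, 12.87 and 12.64 in CNT cultures. Its log2 difference was -0.06 (standard error 0.16), with overlapping groups. Uba6, which activates both ubiquitin and Ubd, had one of -0.02 (standard error 0.27). The highest of this class was Mocs3 (0.35, standard error 0.12), which activates the modifier Urm1, with groups that did not overlap. Mocs3 read only 6.02 to 6.57 on the arrays, and without a detection call its signal above background was not established. Atg7 of autophagy followed with 0.29 (standard error 0.20) in its brightest probe set. The other Atg7 probe sets gave 0.20 (standard error 0.15) and -0.31 (standard error 0.13).

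All 30 measured conjugating enzymes of other modifiers lay within 0.5 of no difference, from -0.22 (Ube2h) to 0.27 (Ube2j1), with a median of -0.01, where Ube2l6 had 0.74. Ube2l3, the closest relative of Ube2l6 and a carrier of ubiquitin, read 12.05, 12.51 and 12.50 in control and 12.53, 12.12 and 12.46 in CNT cultures, a log2 difference of 0.01 (standard error 0.18). Ufc1, which carries Ufm1, had a difference of 0.20 (standard error 0.09). It was among 2 of the 30 in which every CNT array exceeded every control array, beside 5.94% of all genes. Ube2m, which carries Nedd8, had one of -0.17 (standard error 0.11).

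Of the 41 other Usp proteases measured, every one lay within 0.5 of no difference by its brightest probe set. The median was -0.02, beside 2.61 for Usp18. The highest was Usp25, with 0.44. Usp29 (0.30, standard error 0.09) and Usp31 (0.37, standard error 0.16) were among 3 of the 41 whose groups did not overlap. In all 3 the CNT arrays were the higher, beside 5.94% of all genes. Usp34, the brightest of its list, had a difference of -0.04 (standard error 0.10) in its brightest probe set. Its other probe sets gave -0.62 (standard error 0.36) and -0.23 (standard error 0.13). The 5 measured proteases that have been reported to react with ISG15 in addition to ubiquitin ranged from -0.41 (Usp13, standard error 0.25) to 0.05 (Usp21), and Usp14, of the proteasome, had -0.03 (standard error 0.09). In each of the 13 alternatives run for the 4 genes, each remained above all measured relatives of its class, which the choice of the 4 by this contrast favours.

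**Figure D2:**
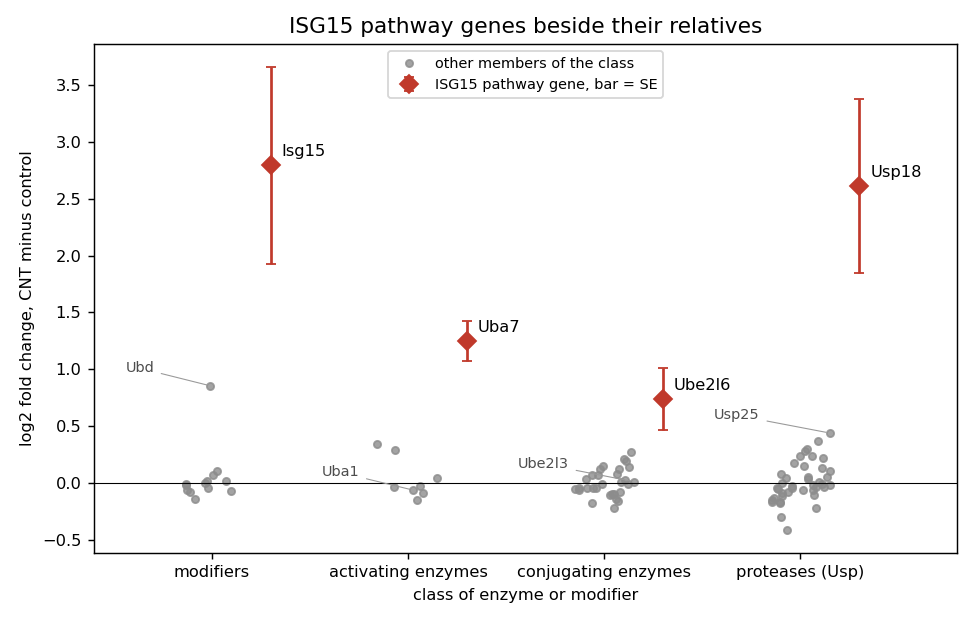
Log2 difference between CNT and control cultures (vertical axis) for Isg15, Uba7, Ube2l6 and Usp18 (red diamonds, bars are SE, n = 3 per group) beside the measured relatives of each class (grey points, spread sideways for visibility). Each gene is read by its brightest probe set. All but Ubd of the 92 relatives lie within 0.5 of zero, and each red gene lies above its class.

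For the last step, transfer to target proteins, Herc6 had the largest log2 difference measured among the ligases. Herc6 is the main ISG15 ligase of mice. It read 4.70, 4.44 and 6.52 in control and 6.04, 6.98 and 7.72 in CNT cultures. Control 3 lay above CNT 1, so the groups overlapped, and the log2 difference was 1.69 (standard error 0.66), or 2.34 without control 3. The lowest values on the 6 arrays were 3.38 to 3.46, and no detection call was used here, so whether Herc6 was above background in controls 1 and 2 is not established. Trim25, a ubiquitin ligase that also attaches ISG15, read 11.05, 11.00 and 11.71 in control and 11.29, 12.01 and 12.03 in CNT cultures. Its log2 difference was 0.52 (standard error 0.28), again with overlap. Of the 8 measured ligases and their relatives, Herc6 alone was higher at an unadjusted p under 0.05 and none lower (2.41% and 0.710% of all genes), and the median difference was 0.05.

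Of the receptor and signalling genes that Usp18 acts on or that act on the 4 genes, 8 were measured, and 3 were higher at an unadjusted p under 0.05 while none was lower, beside 2.41% and 0.710% of all genes. Irf9, a subunit of ISGF3, read 10.33, 10.12 and 10.65 in control and 11.02, 11.31 and 11.16 in CNT cultures, without overlap, with a log2 difference of 0.80 (standard error 0.16). Stat2, another subunit and a partner of Usp18 at the receptor, had a log2 difference of 0.81 (standard error 0.25), and the lowest CNT culture was only 0.02 above control 3. Ifnar2, which Usp18 binds, had a log2 difference of 0.45 (standard error 0.19) with overlapping groups, but -0.15 (standard error 0.13) in its other probe set. Ifnar1, the other receptor subunit, had a log2 difference of 0.05 (standard error 0.17) in its brightest probe set and of -0.17 to 0.35 in the other 5. That of the kinase Jak1 was -0.04 (standard error 0.10). Control 3 covered 45.5% of the distance from the other controls to the CNT mean for Irf9 and 60.2% for Stat2, between Uba7 and Isg15.

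**Figure D3:**
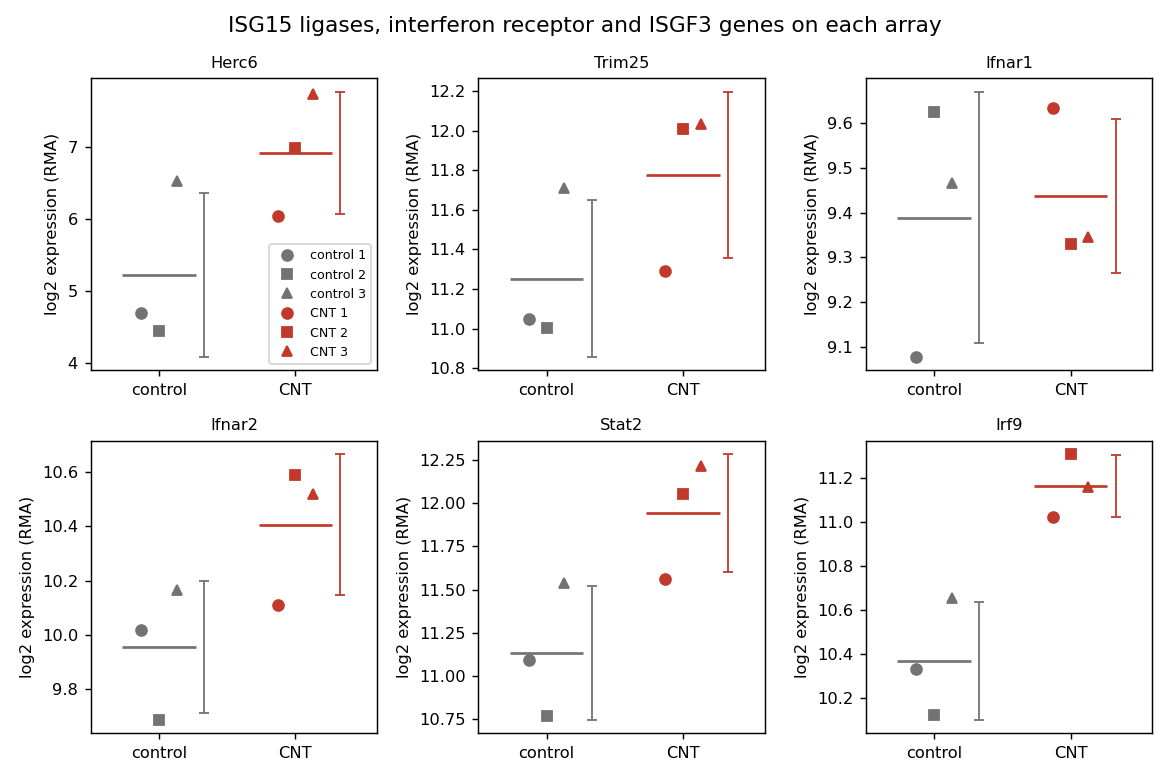
Log2 expression (vertical axis, RMA, a scale of its own in each panel) of the ligases Herc6 and Trim25, the receptor subunits Ifnar1 and Ifnar2 and the ISGF3 subunits Stat2 and Irf9, in controls (grey) and CNT cultures (red), where the marker shape gives the culture number. The horizontal line is a group's mean and the bar its SD (n = 3), and only Stat2 and Irf9 have groups that do not overlap.

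Of 16 measured genes whose proteins have been reported to carry ISG15, 7 were higher at an unadjusted p under 0.05 and none lower, beside 2.41% and 0.710% of all genes, and the median log2 difference was 0.38. Those 7 (Mx1, Eif2ak2, Ifit1, Ifit3, Parp12, Pml and Rnf213) are themselves known interferon-induced genes, and the study lists some of them from these arrays, so the count is not independent evidence. Pml, the scaffold of a nuclear body, had a log2 difference of 1.03 (standard error 0.24) and Parp12, an antiviral ADP-ribosyltransferase, of 0.92 (standard error 0.23), neither with overlap. The remaining 9 include proteins of general function, among them Pcna, the sliding clamp of DNA replication, with a log2 difference of 0.12 (standard error 0.15). Over all 124 measured genes of the lists outside the 4, 13 were higher at an unadjusted p under 0.05 and none lower, again beside 2.41% and 0.710% of all genes. The count of 13 was 3 without control 1 and CNT 2 together, and it was 6 without control 2, 8 without CNT 2 and 7 without CNT 3.

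Genes whose pattern was most like that of the 4 were sought among 2496 others with a range of at least 1 log2 over the arrays, by Pearson r over the 6 arrays with the mean of the standardized values of Isg15, Uba7, Ube2l6 and Usp18. The 8 highest were Helz2 (r = 0.998), Irgm2 (0.997), Gchfr (0.996), Dtx3l (0.994), Bst2 (0.993), RT1-N3 (0.991), Ifi35 (0.990) and Parp12 (0.990). An r of at least 0.95 was reached by 70 genes, so the first 8 are not set apart from those that follow. Helz2, a nuclear helicase, had a log2 difference of 1.21 (standard error 0.28) and Bst2, which tethers virus particles to the cell surface, of 1.42 (standard error 0.36). Gchfr, the feedback regulator of GTP cyclohydrolase, had one of 0.68 (standard error 0.18).

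**Figure D4:**
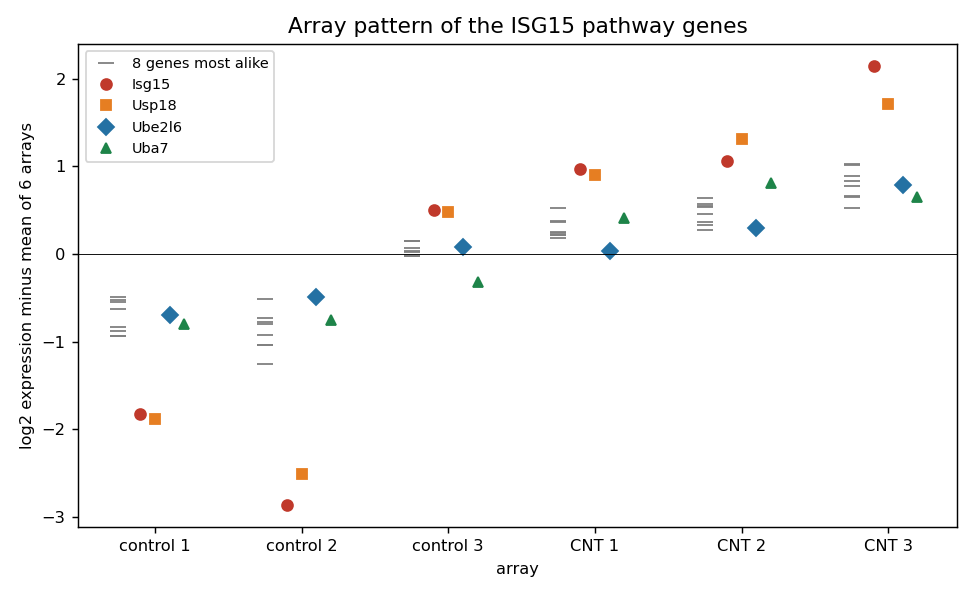
Log2 expression minus the mean of the 6 arrays (vertical axis) for Isg15, Usp18, Ube2l6 and Uba7 (coloured markers) and for the 8 genes most like them (grey dashes) on each array (horizontal axis). Controls 1 and 2 lie below zero for every gene shown, control 3 is near or above zero except for Uba7, and all CNT arrays are above zero.

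All 8 of these genes have a window in the promoter table, and 5 of them hold the longer form. These 5 are shown for comparison with the shorter match of Uba7 above, each in 30 bases with the match in capitals, read along the strand of the gene, with positions counted from the start:
Irgm2, chr10:42889858-42889887, plus strand, positions -112 to -83: tctaggaaccGAAACTGAAAgctgttctgg
Dtx3l, chr11:78320225-78320254, plus strand, positions 1 to 30: cccgggaaacGAAACTGAAActttgcctct
Bst2, chr16:18255079-18255108, minus strand, positions -141 to -112, with overlapping matches: ccctttccagGAAAATGAAACTGAAAggtg
RT1-N3, chr20:2666272-2666301, plus strand, positions -217 to -188, with the match on the opposite strand: tgtgcttcagTTTCACTTTCcagtccctaa
Parp12, chr4:68850540-68850569, minus strand, positions -28 to 2, with the match on the opposite strand: tggggccggcTTTCGGTTTCgtttccttcc
The genes were picked by their values, so their share is a description beside the 3.92% of all windows.

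Markers of microglia and macrophages, cells that respond readily to interferon, moved with the group for some arrays and not for others. Of 18 measured markers, 15 had a positive log2 difference, as did 58.5% of all genes, and 1 of them (Cd14) was higher at an unadjusted p under 0.05 (2.41% of all genes). In 2 of the 18 every CNT array exceeded every control array (5.94% of all genes), and in none did the reverse hold (2.05% of all genes). Their log2 differences had a median of 0.19 and ran from -0.34 (Tmem119) to 0.72 (Itgam). The mean log2 expression of the 18 was 11.90, 12.54 and 12.44 in controls 1, 2 and 3 and 12.67, 12.72 and 12.22 in CNT cultures 1, 2 and 3, and the sum of their linear values ran from 103726 to 153302 in control and from 130872 to 177509 in CNT cultures. Of the defining markers, Aif1, Itgam and Cx3cr1 had lowest values of 11.98, 8.81 and 7.23. The lowest value of Cx3cr1 was below that of Slc1a2. Without a detection call, signal above background was not established for Cx3cr1 either. The order of the arrays was not that of the ISG15 genes. CNT 3, with the highest Isg15 value, had a lower microglial mean than controls 2 and 3, and control 2, with the lowest Isg15 value, had a higher one than CNT 3. The 9 measured astrocyte markers all had negative log2 differences, with a median of -0.12 and none past the test. Beside the same 58.5% of all genes, 5 of 12 neuronal markers were positive, with a median of -0.08. Of the oligodendrocyte markers 6 of 9 were positive, with a median of 0.04, and of the fibroblast and meningeal markers 1 of 10, with a median of -0.41 and Fbln5 lower at an unadjusted p under 0.05 (0.710% of all genes). By immunostaining, the study reported a higher density of cells positive for the microglial protein Iba1 on nanotubes. It reported similar densities of neurons and of GFAP-positive astrocytes on both substrates. The part of cell composition in the differences of the 4 genes was not tested.

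**Figure D5:**
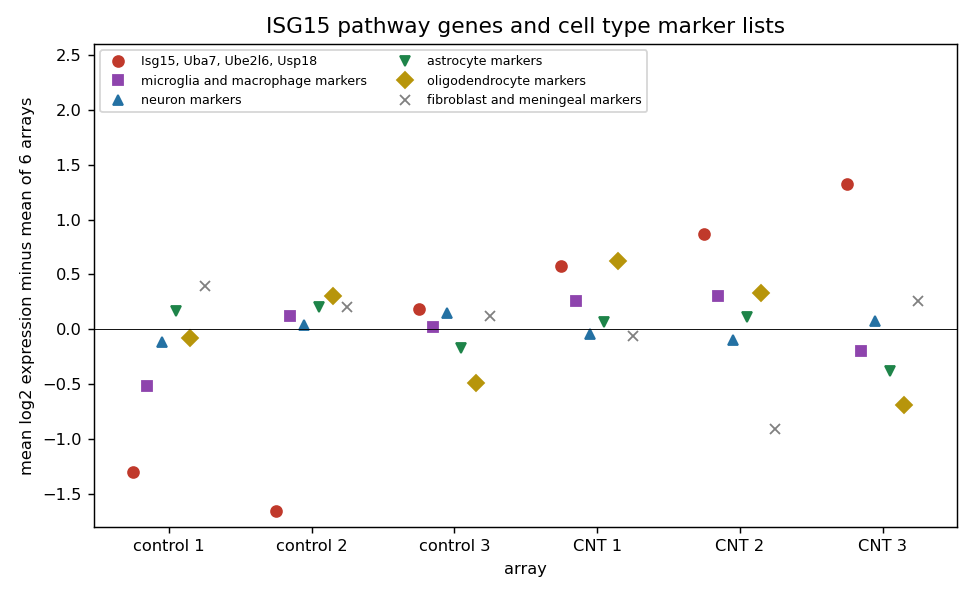
Mean log2 expression minus the mean of the 6 arrays (vertical axis) for the 4 genes Isg15, Uba7, Ube2l6 and Usp18 together (red) and for 5 lists of cell type markers on each array (horizontal axis). The red points lie lowest in controls 1 and 2 and highest in CNT 3, whereas the microglial points are lowest in control 1 and below zero in CNT 3.

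RNA quality also varied between the arrays. Beta-actin read higher at its 3' than at its 5' end by 2.20 log2 in control 1 and CNT 2 and by 1.72 in CNT 3, against 0.62 to 0.92 on the other arrays. Without control 1 and CNT 2, the arrays where it was largest, the folds were 6.68 for Isg15, 4.99 for Usp18, 2.10 for Uba7 and 1.53 for Ube2l6. With this measure as a covariate they were 7.31, 6.54, 2.38 and 1.72.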

How the data were processed

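Total RNA of 3 control and 3 CNT cultures (100 ng each) was amplified, labelled and hybridized to Affymetrix Rat Genome arrays. The deposited values are log2 expression, made by the authors with RMA (version not given in the sources used here) for 31099 probe sets, whereas the methods name EntrezGene custom files and the rank product, which permutes genes and was not used here. The 20826 probe sets that the platform annotation assigns to a single gene were kept, and 436 with several genes, 9780 without one and 57 controls were left out. The brightest probe set on average stood for each of 14217 genes. Groups were compared without pairing (R 4.3.3, limma 3.58.1, lmFit then eBayes), and p-values were adjusted by Benjamini-Hochberg across the whole table, with 0.05 as threshold. Precision is limited by the 3 arrays in a group.

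The 4 genes and the gene lists were chosen with earlier results of these data known. The lists of relatives and partners hold 154 genes, of which 124 were measured. Named were the 4 genes with all probe sets, of each list the 2 genes of smallest unadjusted p and the 1 of highest mean, relatives and partners set by name (some are not reported here), and the 8 genes most alike over the arrays with the 4 most alike within groups. Genes at the ends of a list's range (Ufm1, Ube2h, Ube2j1, Usp21, Usp25, Tmem119 and Itgam), marker genes past an unadjusted threshold (Cd14 and Fbln5), those called without control 3 and those counted among substrates were named after their values were seen. Promoter sequences are those of RefSeq, build GRCr8. Alternatives were other normalizations, other uses of probe sets, a replicate block, the beta-actin difference, other limma settings, a filter on dim genes and leaving out arrays.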

Additional observations from a re-analysis of the deposited data

How the results depend on the processing

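The log2 differences of Isg15, Uba7, Ube2l6 and Usp18 kept their direction and their order in all 13 alternatives run. Leaving out 1 array at a time gave 2.06 to 3.74 for Isg15, 2.01 to 3.51 for Usp18, 1.16 to 1.40 for Uba7 and 0.53 to 0.96 for Ube2l6, and the mean of the 3 probe sets gave 0.999 for Uba7. The count of genes past an adjusted p of 0.05 stayed at 0 except without control 3, where 2 were higher (Mx1 and Prl6a1). The 342 higher genes at an unadjusted p under 0.05 became 546 with median centring, 532 with array weights, 227 without the dimmest genes, 73 without control 1 and CNT 2 together, and 153 to 670 without 1 array. The 101 lower genes became 54, 223, 67, 43 and 53 to 412 in the same order, 203 with the beta-actin covariate and 213 with every probe set by itself. Of the pathway genes, 13 higher became 3 without control 1 and CNT 2 together and 6 to 15 without 1 array, and none lower became 2 with the mean of probe sets and 1 with the beta-actin covariate. With a replicate block 498 genes were higher and 179 lower. Whether the culture numbers mark a shared culture series is not stated for these samples. The deviations of same-numbered arrays correlated at -0.13, 0.36 and 0.51. Control 3 and CNT 3 correlated best with each other, and were the most alike of all array pairs (r = 0.9938 across genes, which are not independent replicates), whereas control 1 and control 2 correlated better with other numbers, so the samples were not treated as paired. The causes of these changes were not tested.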

Other observations

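When the group means were removed and the deviations of the 6 arrays alone were compared with those of Isg15, Uba7, Ube2l6 and Usp18, other genes came first than over the full values. LOC103691468 had an r of 0.999, Nr1h3, a nuclear receptor for oxysterols, likewise of 0.999, Anpep, a membrane aminopeptidase, of 0.997 and Rassf4 of 0.995. Anpep read 10.90, 10.90 and 11.96 in control and 11.16, 11.57 and 11.84 in CNT cultures, so control 3 was its highest array, and its log2 difference between the groups was 0.27 (standard error 0.34). Nr1h3 read 7.65, 7.44 and 8.99 in control and 8.27, 8.79 and 9.09 in CNT cultures, with a log2 difference of 0.69 (standard error 0.44). Both shared the high control 3 with Isg15 and Usp18 and had overlapping groups. These correlations are over 6 arrays with the group means taken out, and are descriptions of genes picked for them.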
